A study of Mus musculus with 12 samples.

Results

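The genes of the constitutive proteasome were examined in regulatory T cells of lymph nodes, on 12 arrays. They were taken by symbol from the platform annotation: every gene named Psma to Psmg followed by a number, leaving out the interferon-inducible catalytic subunits Psmb8, Psmb9 and Psmb10. This gave 47 of the 19505 genes measured, each with a single row in the value table. The symbol rule takes in 2 partner proteins that are not subunits, Psmc3ip and Psme3ip1, and misses Psmb5, a catalytic subunit with no row named here, which was not analysed here.

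The mice formed 2 groups of 6, NOD and NOD.Drak2-/-. NOD is an inbred strain prone to spontaneous autoimmune diabetes, and in NOD.Drak2-/- the gene of the kinase Drak2, named Stk17b in the files, is disrupted per the label. Drak2 dampens signals from the T cell receptor. All mice were females 4 to 8 weeks old, and each array held the cells of a single mouse. The cells were sorted from lymph nodes as CD4+ CD8- CD25+ CD45RBlo, although the sorting protocol in the labels names antibodies to CD4, CD8 and CD45RB only. The labels do not say which part of the gene was removed or in which cells. In sorted cells measured in bulk, fewer cells of a kind and less RNA per cell cannot be told apart.

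The proteasome is the large protease that degrades proteins tagged with ubiquitin. Its barrel-shaped core is a stack of rings: outer rings of alpha subunits gate the entrance, and inner rings of beta subunits hold the active sites, of which Psmb5, Psmb6 and Psmb7 are the standard catalytic ones and Psmb8, Psmb9 and Psmb10 their immune replacements. A regulatory particle caps the core, with a base of unfolding ATPases and ubiquitin receptors and a lid that removes ubiquitin, and dedicated chaperones assemble both. Lymphocytes carry a mixture of standard and immune cores, and the proteasome is required in T cells for antigen receptor signalling through NF-kappa B and for division.

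Of the 47 genes, 45 had a mean signal above 5.87 on the log2 scale, the mean of the brightest of 23 background rows whose probes match nothing in the genome; 58.3% of all genes lay below that level. The remaining 2 were Psma8, the alpha subunit of germ cells, at a mean of 3.17 in NOD and 3.28 in NOD.Drak2-/-, and Psmb11, the beta subunit of thymic cortical epithelium, at 3.45 and 3.23. Psmb11 ranged from 3.32 to 3.59 in NOD (median 3.45) and from 2.89 to 3.41 in NOD.Drak2-/- (median 3.31), overlapping, with an adjusted p of 0.553 (limma). Both were under the brightest background row of their own array on all 12 arrays. Psme4 was above its array's brightest background row on 9 of 12 arrays, Psmd6, Psmd13 and Psmd14 on 11 of 12, and the other genes on all 12.

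No proteasome gene differed between the genotypes at the threshold, an adjusted p of 0.05 from limma over all 19505 genes. Among the 47 genes, 0 were called, and 0.0205% of all genes were called at that threshold (0.0154% as positive and 0.00513% as negative differences, a difference being NOD.Drak2-/- minus NOD). The smallest adjusted p of any of the 47 was 0.508 (limma). At an unadjusted p under 0.05, 2 of 47 passed, both negative, Psmd11 and Psmg1, against 9.43% of all genes. By direction, 5.69% of all genes passed with a negative difference and 3.74% with a positive one, where 0 of the 47 did. With array medians subtracted the count was 2 positive and 0 negative, beside 1423 positive and 531 negative of all 19505 genes. For 0 of the 47 did the arrays of the genotypes fail to overlap, against 0.513% of all genes.

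The differences lay on both sides of zero, 23 positive and 24 negative, between -0.31 and 0.33, with a median of -0.02; with each array's median subtracted, 29 were positive and 18 negative. The median over all 19505 genes was also -0.02, and over the 8128 genes above background it was 0.03. The largest difference corresponded to 1.25-fold. Leaving out 1 array turned the sign of 18 of the 47 genes. The precision can be read from the intervals: for the 45 genes above background the median SE was 0.13, all 45 of the 95% intervals lay within 2-fold in either direction and 42 lay within 1.5-fold. The 3 that reached past 1.5-fold were those of the ubiquitin receptor Psmd4, the lid subunit Psmd6 and the activator Psme4.

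**Figure D1:**
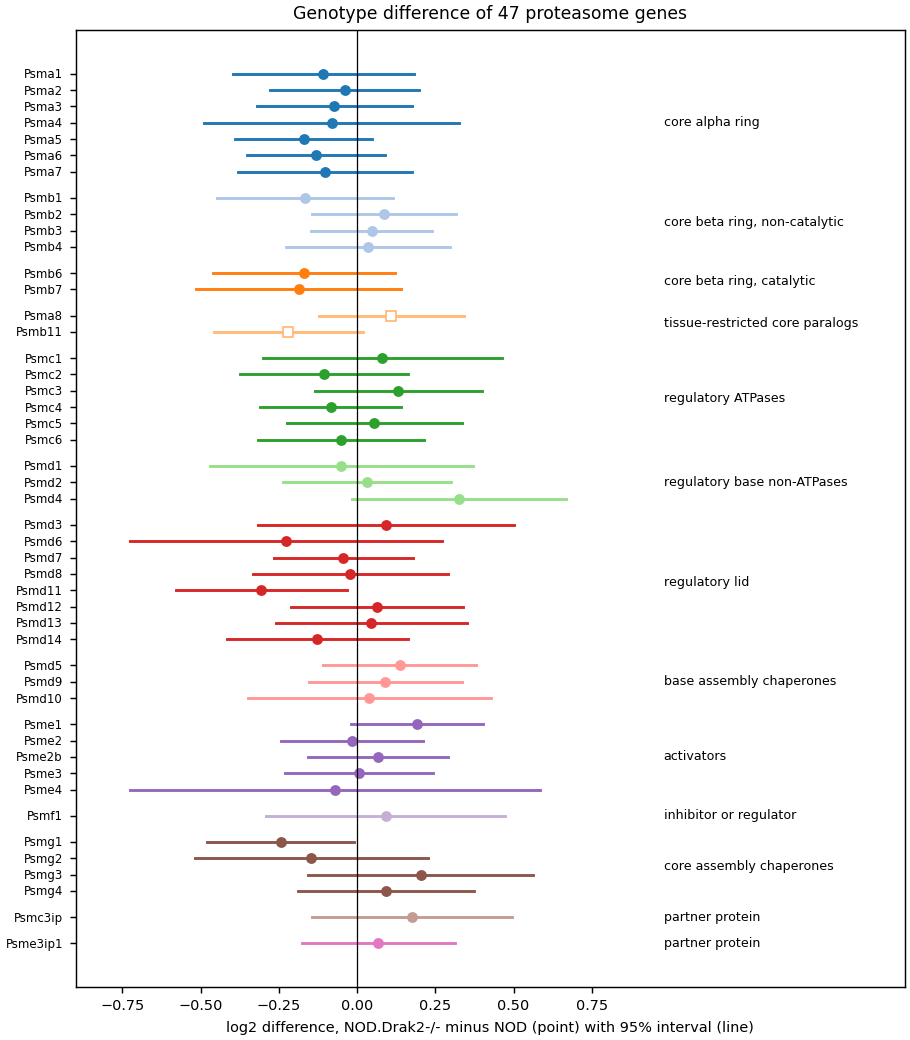
Difference between genotypes (log2, NOD.Drak2-/- minus NOD, horizontal axis) for each of the 47 genes, ordered by role and coloured by class; points are limma estimates, lines their 95% intervals, and open squares the 2 genes below background. Every point lies between -0.31 and 0.33, and only the intervals of Psmd11 and Psmg1 leave out 0.

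The alpha ring, the gate of the core particle, is made of Psma1 to Psma7. All 7 differences were negative, from -0.17 for Psma5 to -0.04 for Psma2, with a median of -0.10, and 0 of 7 passed at an unadjusted p under 0.05. That direction did not hold under every alternative: 4 of 7 were positive, with a median of 0.01, when the mean of the hybridization control rows was a covariate. This covariate was added after seeing the data. It ran from 9.30 to 9.90 on NOD arrays and from 9.14 to 10.84 on NOD.Drak2-/- arrays, so it can take up part of a genotype difference. With each array's brightest background row as a covariate 3 of 7 were positive, with a median of -0.001. With array medians subtracted 1 was positive, with a median of -0.04. Leaving out NOD replicate 5 made 1 positive and leaving out NOD.Drak2-/- replicate 2 made 2 positive, each with a median of -0.05. All 7 stayed negative with larger medians when the GC difference of the background rows was a covariate (-0.20), with the replicate number as a block (-0.17) and without NOD replicate 6 (-0.15). The mean over the 7 genes was 9.92, 9.74, 9.95, 9.73, 10.04 and 9.71 on NOD arrays 1 to 6. On NOD.Drak2-/- arrays 1 to 5 and 7 it was 9.66, 9.42, 9.90, 9.88, 9.71 and 9.91. Replicate 2 of NOD.Drak2-/- was the lowest array of all, and the other 5 of its genotype lay near or inside the NOD range.

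Psma5, the alpha subunit with the smallest p, had a lowest value of 10.65, a median of 10.76 and a highest value of 10.94 in NOD, against 10.33, 10.63 and 10.76 in NOD.Drak2-/-. All 6 NOD.Drak2-/- arrays were below the NOD mean, and the groups overlapped. The means were 10.77 ± 0.11 (SD, n = 6) and 10.61 ± 0.15 (SD, n = 6), a difference of -0.17 with a 95% interval of -0.39 to 0.05 and an adjusted p of 0.609 (limma).

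Among the inner-ring genes, the non-catalytic Psmb2, Psmb3 and Psmb4 had differences of 0.09, 0.05 and 0.04, and Psmb1 one of -0.17, which was -0.08 without NOD.Drak2-/- replicate 2; that of Psmb2 was 0.02 without NOD replicate 2. Both catalytic genes measured were lower on average in NOD.Drak2-/- with overlapping groups. Psmb6, which encodes the caspase-like active site, read 9.75, 9.83, 9.82, 9.51, 9.84 and 9.39 on NOD arrays 1 to 6 and 9.40, 9.37, 9.60, 9.91, 9.14 and 9.69 on the NOD.Drak2-/- arrays. The highest array and the lowest array of all 12 were both NOD.Drak2-/-, replicates 4 and 5. The difference was -0.17 (SE 0.14, adjusted p 0.702, limma), or -0.10 without replicate 5 and -0.25 without replicate 4. Psmb7, the trypsin-like active site, ranged from 9.10 to 9.83 around a median of 9.55 in NOD and from 8.99 to 9.71 around 9.32 in NOD.Drak2-/-. Its difference of -0.19 (adjusted p 0.711, limma) was -0.12 without NOD replicate 3 and also without NOD.Drak2-/- replicate 2, and -0.04 with the brightest background row as a covariate. The difference of Psmb7 was -0.27 without NOD replicate 6, and its lowest value over 22 alternatives was -0.33. Both catalytic genes kept a negative difference in all 22, the highest being -0.03 for Psmb6 and -0.03 for Psmb7. These alternatives reuse the same arrays and are not independent. In the main fit neither differed beyond the spread between mice.

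The inducible catalytic genes left out by the rule served as a comparison, since they compete with Psmb6, Psmb7 and Psmb5 for places in the core. Psmb8 ranged from 10.04 to 10.32 in NOD (median 10.10) and from 9.96 to 10.42 in NOD.Drak2-/- (median 10.20). Psmb9 ranged from 9.82 to 10.27 (median 9.97) and from 10.01 to 10.53 (median 10.09). Psmb10 ranged from 7.84 to 8.28 (median 8.03) and from 8.03 to 8.41 (median 8.21). All 3 differences were positive, 0.09, 0.15 and 0.15, the groups overlapped for each, and the adjusted p-values were 0.807, 0.691 and 0.674 (limma). NOD.Drak2-/- replicate 1 was the highest array for all 3, and without it the differences were 0.05, 0.08 and 0.11. The difference between the standard and the inducible genes was not tested.

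In the base of the regulatory particle, the 6 ATPases that unfold substrates, Psmc1 to Psmc6, had 3 positive and 3 negative differences, from -0.11 for Psmc2 to 0.13 for Psmc3, with a median of 0.00. Psmd1 and Psmd2, the scaffold subunits that dock ubiquitin carriers, had differences of -0.05 and 0.03. The third base subunit, Psmd4, captures ubiquitin chains and had the largest difference of the 47 genes. It read 7.56, 7.58, 7.78, 8.07, 7.79 and 8.23 on NOD arrays 1 to 6. On NOD.Drak2-/- arrays 1 to 5 and 7 it read 8.39, 8.68, 7.88, 7.83, 8.19 and 8.00. Replicates 1 and 2 of NOD.Drak2-/- lay above every NOD array and the other 4 lay within the NOD range. The means were 7.84 ± 0.26 (SD, n = 6) and 8.16 ± 0.33 (SD, n = 6). The difference of 0.33 had a 95% interval of -0.02 to 0.67 and an adjusted p of 0.538 (limma), and it became 0.17 with the brightest background row as a covariate and 0.12 with the hybridization controls. Over 22 alternatives it ran from 0.12 to 0.45.

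The lid genes had 3 positive and 5 negative differences with a median of -0.03. Psmd11, a scaffold subunit of the lid, had the smallest p of the 47 genes. Its NOD arrays 1 to 6 read 8.00, 8.00, 7.93, 8.15, 8.11 and 8.21, and the NOD.Drak2-/- arrays read 7.76, 8.04, 7.82, 7.23, 7.90 and 7.81. All 6 NOD.Drak2-/- arrays were below the NOD mean of 8.07 ± 0.11 (SD, n = 6), 1 of them within the NOD range, and replicate 4 stood apart from the rest. The NOD.Drak2-/- mean was 7.76 ± 0.28 (SD, n = 6). The difference was -0.31 (SE 0.13, 95% interval -0.58 to -0.03), with an adjusted p of 0.508 (limma), and it was -0.20 without replicate 4. Over 22 alternatives it ran from -0.42 to -0.20. Psmd14, the lid enzyme that cuts ubiquitin off substrates, had a difference of -0.13, -0.23 without NOD.Drak2-/- replicate 4, -0.08 without NOD replicate 3 and -0.07 without NOD.Drak2-/- replicate 2. Psmd6 had one of -0.23 with an adjusted p of 0.768 (limma), which rested on NOD.Drak2-/- replicate 2 and was 0.02 without it. The other lid genes, Psmd3, Psmd7, Psmd8, Psmd12 and Psmd13, lay between -0.04 and 0.09.

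**Figure D2:**
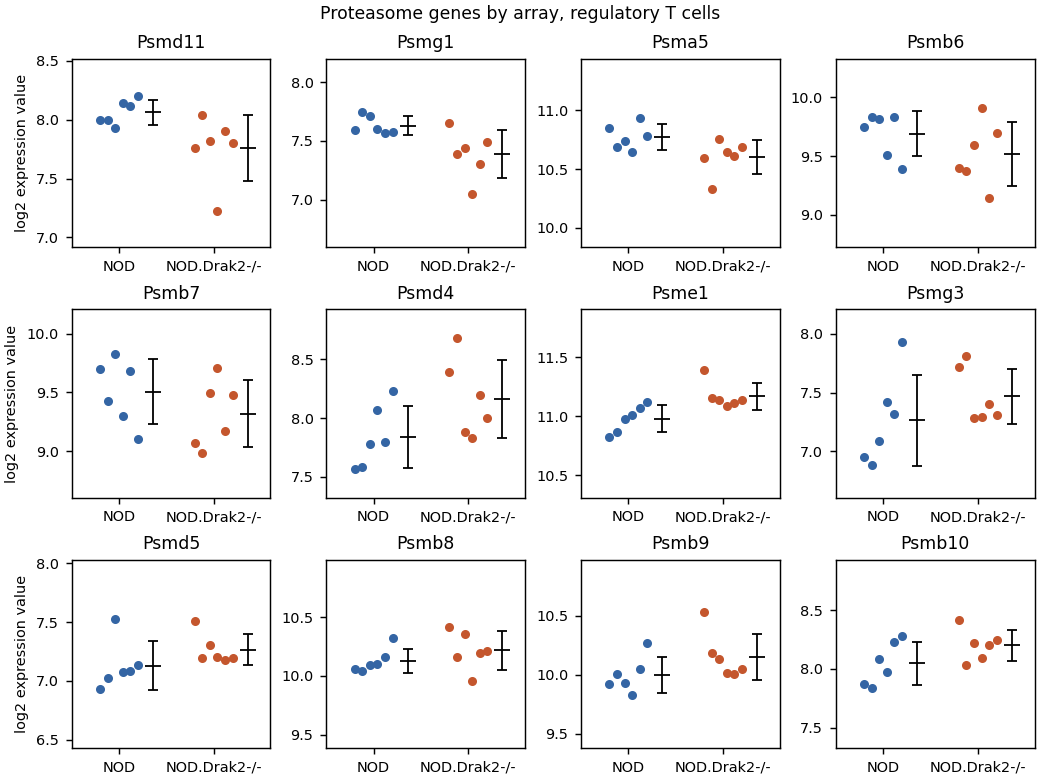
Deposited log2 value on each array (vertical axis, spanning about the same width in every panel) for 12 genes, the 9 above-background genes discussed by array and the 3 inducible subunits; points are arrays in replicate order, blue NOD and orange NOD.Drak2-/-, and bars give the mean ± SD (n = 6). The groups overlap in every panel; the low NOD.Drak2-/- point of Psmd11 is replicate 4 at 7.23.

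Of the activators that open the core without ATP, Psme1 and Psme2 form the interferon-inducible PA28 ring of the cytoplasm. Psme1 ranged from 10.82 to 11.12 in NOD (median 10.99) and from 11.08 to 11.39 in NOD.Drak2-/- (median 11.14). All 6 NOD.Drak2-/- arrays exceeded the NOD mean of 10.98 ± 0.12 (SD, n = 6), but 5 of them lay within 11.08 to 11.15, where the highest NOD array also lay. The difference was 0.19 with an adjusted p of 0.562 (limma). Psme2 had means of 10.80 in NOD and 10.78 in NOD.Drak2-/-. Whether the partners differ from each other was not tested, and the row of Psme2b, a near copy of Psme2, at 10.50 and 10.57, may share probes with it. Psme3, the nuclear PA28 gamma, was at 9.83 and 9.84. Psme4, which encodes PA200, was at 6.41 ± 0.57 and 6.34 ± 0.72 (SD, n = 6 each), from 5.88 to 7.31 in NOD and from 5.12 to 7.19 in NOD.Drak2-/-, the widest spread of the activators. Psmf1, which binds the core and was first described as its inhibitor, was at 8.60 and 8.69; without NOD replicate 1, at 7.78 the lowest array, its difference turned from 0.09 to -0.07.

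The core is assembled by the chaperone pairs Psmg1 with Psmg2 and Psmg3 with Psmg4. Psmg1 ranged from 7.56 to 7.75 in NOD (median 7.60) and from 7.05 to 7.66 in NOD.Drak2-/- (median 7.41). It was below the NOD mean on 5 of 6 NOD.Drak2-/- arrays, and NOD.Drak2-/- replicate 1 lay within the NOD range. The means were 7.63 ± 0.08 and 7.39 ± 0.20 (SD, n = 6 each), a difference of -0.24 (95% interval -0.48 to -0.01) with an adjusted p of 0.519 (limma). Its partner Psmg2 was at 8.05 and 7.90, a difference of -0.15 that ran from -0.24 without NOD.Drak2-/- replicate 3 to -0.06 without NOD.Drak2-/- replicate 1. The other pair had positive differences. Psmg3 read 6.88 to 7.93 in NOD (median 7.20) and 7.28 to 7.81 in NOD.Drak2-/- (median 7.35), a difference of 0.20 (adjusted p 0.713, limma) that was 0.13 without NOD replicate 2 and 0.34 without NOD replicate 6. Psmg4 was at 8.40 and 8.50, a difference of 0.09 that was 0.02 without NOD.Drak2-/- replicate 4 and 0.16 without NOD replicate 3. The base chaperones Psmd5, Psmd9 and Psmd10 had positive differences of 0.14, 0.09 and 0.04, and that of Psmd10, the last, turned negative in 8 of 22 alternatives, 4 of them the omission of 1 array. Psmd5 ranged from 6.93 to 7.53 in NOD (median 7.08) and from 7.18 to 7.51 in NOD.Drak2-/- (median 7.20), and its adjusted p was 0.718 (limma); its difference was 0.21 without NOD replicate 3 and 0.09 without NOD.Drak2-/- replicate 1. Of the partner proteins, Psmc3ip, a recombination factor that binds Psmc3, was at 7.50 and 7.68, and Psme3ip1, which binds Psme3, at 9.25 and 9.32.

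The arrays nevertheless differed among themselves in a way that many of these genes shared. For each gene the deviation of every array from its own genotype's mean was taken, so that the genotype difference plays no part, and the 990 pairs among the 45 genes above background were correlated over the 12 arrays. In the alpha ring all 21 pairs had a positive r, from 0.39 to 0.88 with a median of 0.67, and over all 78 pairs of the core rings the median was 0.59 with 62 positive. In the lid the 28 pairs were spread from -0.94 to 0.91 with a median of -0.03, and 14 were positive. Over all 990 pairs the median was 0.13, beside 0.02 over the pairs of all 8128 genes above background; the median size of r, sign ignored, was 0.38 and 0.29. These medians are descriptions, since every pair uses the same 12 arrays.

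Of the 990 pairs 54 (5.45%) had an r of at least 0.8 in size, beside 1.69% of the pairs of all genes above background. The pairs named here are the extremes of the 990, and their p-values are from permutation of arrays within genotype (two-sided, 100000 permutations), adjusted by Benjamini-Hochberg over the 990 pairs. The tightest was an alpha with a catalytic gene: Psma7 and Psmb7 had a Pearson r of 0.93 (permutation p 3e-05, adjusted p 0.0148) and a Spearman rho of 0.90 (p 0.00047, adjusted p 0.0701). Within NOD r was 0.96 and within NOD.Drak2-/- 0.92, and without the 2 arrays farthest from the median of Psma7 it was 0.92. For each pair named, the 2 arrays left out were chosen by 1 gene only. That gene was Psma7 in its pairs, Psmd11 with Psmd14, Psmd4 with Psmg3 and Psmd1 with Psmd4. The most opposed pair was within the lid, Psmd11 and Psmd14, with r of -0.94 (permutation p 0.00013, adjusted p 0.0318) and rho of -0.93 (p 0.00017, adjusted p 0.0445). Within NOD their r was -0.95, within NOD.Drak2-/- -0.99, and without 2 arrays -0.88. The array that read lowest for Psmd11, NOD.Drak2-/- replicate 4 at 7.23, read highest for Psmd14, at 7.24. Psmd4 varied with the chaperone gene Psmg3 (r 0.90, rho 0.90, adjusted permutation p 0.0148 and 0.0445, 0.88 without 2 arrays) and against its neighbour in the base Psmd1 (r -0.90, rho -0.80, adjusted permutation p 0.0368 and 0.0966, -0.85 without 2 arrays). After each array's median was subtracted, r was 0.93 for Psma7 with Psmb7 and -0.86 for Psmd11 with Psmd14. The medians lay within 5.22 to 5.34 in NOD and 5.18 to 5.24 in NOD.Drak2-/-, so this step could change little. It does not remove other differences in array quality.

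**Figure D3:**
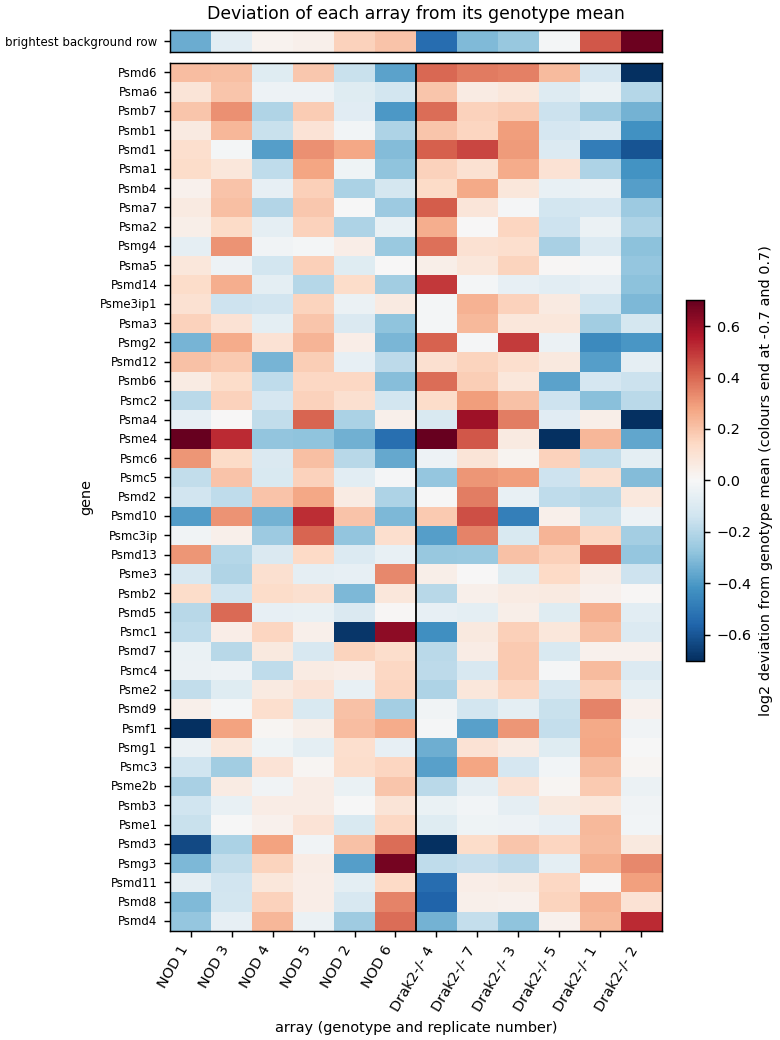
Deviation of each array (columns, ordered within genotype by the brightest background row; genotypes separated by the black line) from its genotype mean in log2 for the 45 genes above background (rows, ordered by their correlation with that background row, most negative on top); red is above and blue below, colours ending at 0.7 in either direction, and the strip on top shows the brightest background row itself. Psmd6 and most alpha genes at the top tend to be below their means where Psmd4, Psmd8, Psmd11 and Psmg3 at the bottom are above theirs.

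Some of the genes also varied with a technical measure of the arrays. The brightest background row lay between 5.51 and 6.06 on the NOD arrays and between 5.55 and 6.77 on the NOD.Drak2-/- arrays, where replicate 2 was at 6.77 and replicate 1 at 6.52. Taken as deviations from the genotype mean, 24 of the 45 genes correlated negatively with it and 21 positively. Permutation within genotype (two-sided), adjusted over all 8128 genes above background, called 4 of the 45 genes, 8.89%, and 8.08% of the 8128. At that threshold the share of proteasome genes that followed the background row was near that of all genes. At an unadjusted permutation p under 0.05 it was 42.2%, beside 29.8% of the 8128. With a negative r it was 33.3% beside 15.2%, and with a positive r 8.89% beside 14.6%. The median size of r was 0.57, beside 0.42 over the 8128. Whether the 45 genes differ from the rest in this was not tested. The 4 genes called after adjustment were Psmd6, Psma6, Psmb7 and Psmd4. What the background row reflects was not tested.

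Psmd6 had the largest of these correlations, with r of -0.87 (permutation p 1e-05, the smallest that these permutations can give, adjusted p 0.00739), rho of -0.92 (permutation p 2e-05, unadjusted) and r of -0.79 without 2 arrays. Here the 2 arrays left out are those farthest from the median of the background row's deviations. It read 6.59 on NOD.Drak2-/- replicate 2 and 7.66 to 8.25 on the other 11 arrays. Psmb7 had r of -0.81 (adjusted permutation p 0.0301) and rho of -0.84, with r of -0.72 without 2 arrays. Psma6 had r of -0.82 (adjusted permutation p 0.0344) and rho of -0.82, with r of -0.64 without 2 arrays. All 7 alpha genes had a negative r, from -0.82 for Psma6 to -0.56 for Psma4. Psmd4 went the other way, with r of 0.84 (permutation p 0.00108, adjusted p 0.0311), rho of 0.81 and r of 0.69 without 2 arrays. The arrays highest for Psmd4, NOD.Drak2-/- replicates 1 and 2, are the arrays with the brightest background rows.

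**Figure D4:**
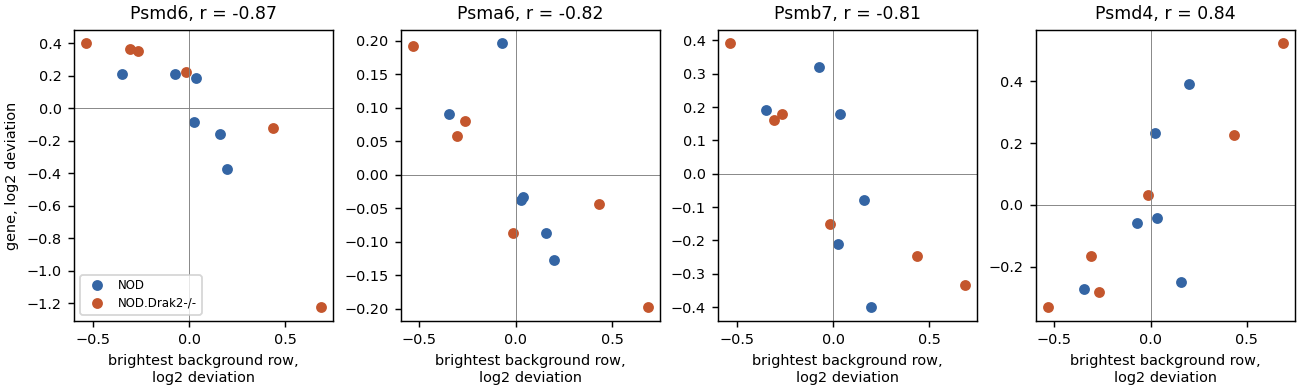
Deviation of 4 genes (vertical axes, log2) against that of the brightest background row (horizontal axes, log2) from their genotype means; each point is 1 of the 12 arrays, blue NOD and orange NOD.Drak2-/-, with Pearson's r above each panel. Psmd6, Psma6 and Psmb7 are lower and Psmd4 higher on arrays with a brighter background row; the lowest Psmd6 point is NOD.Drak2-/- replicate 2.

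Promoters of these genes were read because some of the genes moved together across arrays. RefSeq promoters of assembly GRCm38.p6, 250 bases before to 50 after the start of the gene, matched 39 of the 47 genes. Shown 5′ to 3′ on the gene's strand are Psma7 (chr2:180042415-180042714, minus strand) and the catalytic Psmb6 (chr11:70525107-70525406, plus strand), which varied together (r 0.88, rho 0.86, adjusted permutation p 0.0368 and 0.0725, r 0.84 without 2 arrays). Psmd11 (chr11:80428365-80428664, plus strand) and Psmd14 (chr2:61711444-61711743, plus strand) are the opposed lid pair, and Psmd4 (chr3:95042565-95042864, minus strand) has the largest genotype difference. Psmb7 had no entry. Capitals mark matches to TGANNNNGC, the core of the antioxidant response element bound by Nfe2l1 and Nfe2l2, or to CCGGAAG, a core of sites bound by ETS factors, on either strand.
Psma7: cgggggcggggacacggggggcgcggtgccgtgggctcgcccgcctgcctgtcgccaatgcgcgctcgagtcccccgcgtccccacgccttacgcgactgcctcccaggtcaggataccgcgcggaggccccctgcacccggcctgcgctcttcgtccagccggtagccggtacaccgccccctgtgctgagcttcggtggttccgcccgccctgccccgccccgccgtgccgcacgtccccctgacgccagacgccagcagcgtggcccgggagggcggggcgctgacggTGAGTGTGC
Psmb6: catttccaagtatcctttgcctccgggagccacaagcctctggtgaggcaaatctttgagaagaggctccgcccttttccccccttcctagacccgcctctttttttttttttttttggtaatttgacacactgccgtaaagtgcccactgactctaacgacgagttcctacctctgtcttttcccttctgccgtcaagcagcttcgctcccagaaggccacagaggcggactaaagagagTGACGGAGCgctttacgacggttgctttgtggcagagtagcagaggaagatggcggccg
Psmd11: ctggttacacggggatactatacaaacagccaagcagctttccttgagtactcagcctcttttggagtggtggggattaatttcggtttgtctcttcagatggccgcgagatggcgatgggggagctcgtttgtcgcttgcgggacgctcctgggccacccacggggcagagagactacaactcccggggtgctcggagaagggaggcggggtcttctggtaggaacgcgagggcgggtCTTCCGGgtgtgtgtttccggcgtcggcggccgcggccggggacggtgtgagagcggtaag
Psmd14: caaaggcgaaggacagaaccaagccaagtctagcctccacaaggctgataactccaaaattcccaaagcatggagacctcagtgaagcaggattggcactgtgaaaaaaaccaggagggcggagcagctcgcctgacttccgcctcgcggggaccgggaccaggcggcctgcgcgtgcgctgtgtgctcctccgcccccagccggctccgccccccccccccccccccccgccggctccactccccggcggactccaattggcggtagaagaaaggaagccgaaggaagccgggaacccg
Psmd4: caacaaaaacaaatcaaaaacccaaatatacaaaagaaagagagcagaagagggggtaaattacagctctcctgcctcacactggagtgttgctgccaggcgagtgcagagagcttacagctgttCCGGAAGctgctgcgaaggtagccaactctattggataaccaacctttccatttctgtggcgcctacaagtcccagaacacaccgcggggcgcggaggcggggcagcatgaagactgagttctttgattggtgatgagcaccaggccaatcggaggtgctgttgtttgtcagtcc

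The antioxidant response core was in 22 of the 39 promoters (56.4%), beside 45.0% of the promoters of 27025 genes of the same length. It was in 4 of 7 alpha ring promoters, in 7 of 10 over the core rings and in 6 of 14 of the regulatory particle. Psma7 and Psmb6 each hold 1 match, and Psmd11, Psmd14 and Psmd4 hold 0. Other genes that varied together did not share the match. Psma3 and Psmc6 (r 0.90, adjusted permutation p 0.0318) hold 0 and 2, and the alpha genes Psma1 and Psma2 also hold 0. Whether the match goes with shared variation was not tested. The ETS core was in 16 of 39 (41.0%), beside 9.93% of all genes, and in 9 of 14 promoters of the regulatory particle against 1 of 10 of the core rings. Psmd11 and Psmd4 each hold 1 such match and Psmd14 holds 0. The ETS core was added to the search after the sequences had been seen, so its count in them is a description and no test. The 27025 genes were not limited to genes above background, while most of the proteasome genes are above it. The share among expressed genes was not worked out. A match is a run of letters and no measured binding.

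Other genes of the pathway were counted by list, with 0 called in any list at an adjusted p of 0.05 (limma). Of 8 measured genes that transcribe, process or degrade the factors of proteasome gene expression, 5 had positive differences, 1 passed at an unadjusted p under 0.05, with a negative difference, and the median was 0.05. That one was Sel1l, part of the membrane complex that turns over Nfe2l1, at 6.25 and 5.77 (adjusted p 0.506, limma), above its array's brightest background row on 6 of 12 arrays. Nfe2l2 was at 5.34 and 5.09, below background. Of 11 other proteasome partners, 5 had positive differences and 1 passed, in the negative direction: Txnl1, a thioredoxin of the regulatory particle, with -0.28 (adjusted p 0.517, limma); Midn, which carries substrates to the proteasome without ubiquitin, had a difference of 0.38 (adjusted p 0.589, limma).

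Among 10 genes of ubiquitin and its delivery 7 differences were positive with a median of 0.08, and 0 passed in either direction; the smallest p-values were those of the shuttle Ubqln2 (0.36, but 0.24 without NOD.Drak2-/- replicate 2) and of Ufd1 (0.21), a cofactor of the segregase Vcp. Among 9 genes of class I antigen processing, which uses the peptides made by the proteasome, 4 differences were positive, the median was -0.02 and 0 passed, Tapbp (0.34, from 0.22 without NOD replicate 1 to 0.55 without NOD.Drak2-/- replicate 4) and Calr (-0.13) having the smallest p-values. Of 11 heat shock and dissociation genes 5 had positive differences, 1 passed, in the positive direction, and the median was -0.02: Fos had a difference of 0.44 (adjusted p 0.527, limma), or 0.28 without NOD.Drak2-/- replicate 2, and the chaperone Hsp90aa1 one of -0.22. Of 11 cell cycle genes, all 11 differences were negative, with a median of -0.27, and 3 passed at an unadjusted p under 0.05. The 2 with the smallest p-values were the spindle gene Nusap1 (-0.70, adjusted p 0.483, limma) and the tubulin regulator Stmn1 (-0.47, adjusted p 0.505, limma). Without NOD.Drak2-/- replicate 1, or with the brightest background row as a covariate, 9 of 11 were negative, and the median was -0.15 without NOD replicate 1 and -0.12 without NOD replicate 6. Over all genes, 730 passed at an unadjusted p under 0.05 with a positive difference and 1110 with a negative one, but 1423 and 531 once array medians were subtracted.

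The targeted gene Stk17b ranged from 10.21 to 10.80 in NOD (median 10.55) and from 9.97 to 10.36 in NOD.Drak2-/- (median 10.32), overlapping, with a difference of -0.27 (95% interval -0.52 to -0.02, adjusted p 0.517, limma); the labels do not say whether its probes lie in a deleted part, so it does not check them. Array medians lay between 5.22 and 5.34 in NOD and between 5.18 and 5.24 in NOD.Drak2-/-. All 5 T cell markers measured were above background, with a mean level over the list of 10.3 to 10.6 on NOD and 10.4 to 10.7 on NOD.Drak2-/- arrays. Of 6 regulatory T cell markers measured 5 were above background, with Il2ra, which encodes CD25, below it, and Foxp3 was not analysed here. Of other cells' markers, 0 of 7 myeloid, 1 of 6 B cell (Cd79b), 2 of 6 stromal or endothelial (Pecam1, Col1a1), 1 of 2 CD8 (Cd8b1) and 1 of 1 erythroid (Alas2) were above background. The list means ranged from 4.06 to 4.44 in NOD and from 4.21 to 4.76 in NOD.Drak2-/- for the myeloid markers, from 4.88 to 5.18 and from 4.77 to 5.38 for the B cell markers, and from 5.83 to 6.43 and from 5.97 to 6.56 for the CD8 markers.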

How the data were processed

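RNA of sorted regulatory T cells from 12 mice was hybridised to 12 arrays of 1 colour, from 125 ng each, per the labels' protocols. The authors deposited log2 values. Per the submitters' processing notes, RMA and oligo were used, without a stated version. Arrays give no depth, and precision rests on the number of arrays. Of 29129 rows in the table, 19572 had 1 gene symbol; keeping the brightest row per gene left 19505 genes. The genome build of the array annotation was not stated.

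The genotypes were compared in R 4.3.3 with limma 3.58.1 (lmFit, eBayes, no covariate) and Benjamini-Hochberg adjustment over the 19505 genes. The step was tested on simulated data. The labels call the arrays biological replicates from single mice. Replicate numbers are shared, but the labels do not say that they pair the mice, and the main fit used no pairing. Same-numbered arrays deviated from their genotype means with r of -0.18 to 0.09, which cannot exclude a weak shared effect. The members, lists and tests were chosen with earlier results of these data known. Named by rule were the 4 genes with the smallest p per direction, the catalytic and inducible subunits, Stk17b, activators, chaperones, partners and the 2 smallest p-values of each list; Psmd6 and the correlated genes were chosen after their values were seen. Alternatives left out each array, blocked by replicate number, subtracted array medians, quantile normalized again, dropped dim genes, averaged rows, changed eBayes, weighted arrays and, added after seeing the data, used background or hybridization rows (18 rows of control probes) as covariates. Proteins were not analysed here.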

Additional observations from a re-analysis of the deposited data

Results flagged for a closer look

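In 12 of 102 gene and genotype groups of 6 arrays, 1 array lay farther from the others than Dixon's 95% value of 0.625 for the gap over the range allows, 11.8% where chance flags about 1 group in 20. The groups are not independent, since they share arrays, and the same 3 NOD.Drak2-/- arrays recur.

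NOD.Drak2-/- replicate 4 was apart for 5 core and lid genes. It was low for Psmb2 at 9.82 (others 10.03 to 10.08), Psmd3 at 7.74 (8.58 to 8.73), Psmd8 at 9.28 (9.87 to 10.08) and Psmd11 at 7.23 (7.76 to 8.04), and high for Psmd14 at 7.24 (6.45 to 6.73). NOD.Drak2-/- replicate 1 was high for the activator Psme1 at 11.39 (others 11.08 to 11.15), the base chaperone Psmd9 at 8.05 (7.55 to 7.73) and the inducible Psmb9 at 10.53 (10.01 to 10.18). NOD.Drak2-/- replicate 2, the array with the brightest background row, was low for Psmd6 at 6.59 (others 7.69 to 8.21) and for Stk17b at 9.97 (10.21 to 10.36). Among NOD arrays, replicate 3 was high for Psmd5 at 7.53 (others 6.93 to 7.14) and replicate 1 low for Psmf1 at 7.78 (8.61 to 8.88). The part of array quality in these values was not tested.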

How the results depend on the processing

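The count of proteasome genes past an adjusted p of 0.05 was 0 in the main fit and in all 22 alternatives, and the smallest adjusted p of a named gene in any of them was 0.228 (limma). Of 767 values of 35 named genes under the alternatives, 742 kept their sign, and 5 of the 35 genes turned at least once. Many of the named genes were picked for small p-values in these data, so this share does not stand for all 47. Over all 47 genes, leaving out 1 array turned the sign of 18. At an unadjusted p under 0.05, leaving out 1 array gave 0 to 2 positive and 0 to 2 negative genes of the 47. Over all 19505 genes it gave 519 to 1119 positive and 749 to 1419 negative. With the replicate block there were 1 positive and 0 negative, and own-numbered arrays correlated best in 0 of 5 pairs. With array medians subtracted there were 2 positive and 0 negative, and with trended robust eBayes 1 positive. With the background rows' GC difference as covariate (added after seeing the data) 2 were positive. Positive genes over all 19505 numbered 732 with the block, 1423 with medians subtracted, 771 with trended robust eBayes and 1279 with the GC covariate. Genes near 0 changed sign, and some farther from 0 did too. Psmd6, with a difference of -0.23, turned in 3 of 22 alternatives, and Psma1, with -0.11, in 2. The difference of Psme2 became 0.0494 with medians subtracted, 0.0006 with quantile normalization and 0.0488 with the GC covariate, and -0.0506 to 0.0275 leaving out 1 array. That of Psme3 became -0.0104 with quantile normalization, -0.0062 with array weights and -0.002 with the hybridization controls, and -0.0364 to 0.0734 leaving out 1 array. That of Psme4 became 0.17 with the hybridization controls and 0.15 with the brightest background row, and -0.24 to 0.17 leaving out 1 array; that of Psmf1 was -0.071 to 0.168. Psmg2 turned to 0.0752 with the hybridization controls. The cause was not tested. The median over the 47 genes ran from -0.04 to 0.04 leaving out 1 array and was 0.05 with medians subtracted, where the median of all genes was also 0.05. All genes called at the adjusted threshold numbered 4 in the main fit, 0 with the block and 6 with the GC covariate. Signals near background limit Psme4, Psma8 and Psmb11.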
